A study of Mus musculus with 18 samples.

Results

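The 9 genes described here are the interleukins of mouse monocyte-derived cells (MDCs): *Il1a*, *Il1b*, *Il1rn*, *Il18*, *Il6*, *Il10*, *Il12b*, *Il23a* and *Il27*. They were taken by symbol from the 20298 genes of the expression table, and all 9 were listed. Interleukins are secreted proteins by which monocytes, macrophages and dendritic cells drive or restrain inflammation and instruct T cells. IL-1α and IL-1β act through the type 1 IL-1 receptor, and the IL-1 receptor antagonist occupies the same receptor without signaling, so that the balance of agonist and antagonist sets the response. IL-12, IL-23 and IL-27 are each assembled from a pair of subunits encoded by separate genes, and a subunit transcript on its own does not make a cytokine.

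RNA-seq was performed on C57BL/6 cells (C57BL/6J for the DKI line, in the methods) labeled as Ly6C+ CCR2+ monocytes, from wild type (WT) mice and from DKI mice, in which mutations knocked in to the N-domains of both *Stat5a* and *Stat5b* keep STAT5 dimers from joining into tetramers. Monocytes of each genotype were left untreated (day 0) or cultured with 20 ng/mL GM-CSF, a growth factor that turns monocytes into dendritic and macrophage cells, for 3 or 6 days. Each of the 6 groups held 3 libraries, 18 in all, from 3 independent experiments. The animals carry the mutations in every cell, expression values cannot show them, and the age of the mice was not given in the sources used here. The enrichment was by negative selection from bone marrow according to the series' design, whereas the tissue label of every library reads liver. The hepatocyte genes *Alb*, *Ttr*, *Serpina1a* and *Cyp3a11* were at 0 in all 18 libraries. The 8 hepatocyte markers summed to 34.6 to 151 RPKM in WT and 35.8 to 780 RPKM in DKI libraries, nearly all of it from *Trf*, which encodes transferrin. *Trf* was highest in DKI replicate 1 of days 3 and 6, at 779 and 651 RPKM against 90.8 and 151 RPKM in WT replicate 1, and its part in the results was not tested. The untreated cells carried monocyte markers, with a summed level of 2590 to 3588 RPKM over the 8 genes of the list. They also held markers of other bone marrow cells, since 11 neutrophil and granulocyte precursor genes summed to 2637 to 4502 RPKM in WT and 2792 to 5256 RPKM in DKI monocytes. The sums of 5 basophil, mast cell and eosinophil genes were 240 to 482 RPKM and 151 to 348 RPKM.

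Expression values are RPKM, in which reads are scaled to the length of the transcript and to the mapped reads of the library, so that levels may be compared between genes. The libraries held 29.5 to 43.2 M mapped reads, and 1 read on a member was worth less than 0.05 RPKM. Genotypes and days were compared with limma on log2(RPKM + 1). A gene entered a comparison when its mean was above 2 RPKM in at least 1 group, and was called at an adjusted p below 0.05 with a change above 1.5-fold. The same-numbered WT and DKI libraries of a day deviated together, and the value from a fit with this pairing as a block is given where it changed a call. Replicate 1 of days 3 and 6, in both genotypes, carried an earlier year in its library names than all other libraries. Since these are bulk samples, a change in the share of cells that express a gene and a change in RNA per cell cannot be told apart.

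The windows around the start sites of the genes whose levels changed with genotype or time are shown first, since STAT5 is a DNA-binding factor. Its consensus site has the letters TTCNNNGAA, while STAT5 tetramers, the form lost in DKI cells, can also bind sites that depart from it, which were not searched. RefSeq windows of 300 bases, from 250 bases before to 50 bases after a start site on GRCm38.p6, were found for 6 of the 9 members, and not for *Il10*, *Il23a* and *Il27*. *Il1rn* had 3 such windows, of which the most upstream is shown. *Il1b* lies on the minus strand at chr2:129364569-129371164 and *Il1rn* on the plus strand of the same chromosome at chr2:24336860-24351491. *Il6* lies on the plus strand at chr5:30013114-30019975. Capitals mark matches on either strand to the AP-1 letters TGANTCA or the C/EBP letters TTGCNNAA, and each window is written 5′ to 3′ on the strand of its gene.
Il1b, minus strand, chr2:129371090-129371389: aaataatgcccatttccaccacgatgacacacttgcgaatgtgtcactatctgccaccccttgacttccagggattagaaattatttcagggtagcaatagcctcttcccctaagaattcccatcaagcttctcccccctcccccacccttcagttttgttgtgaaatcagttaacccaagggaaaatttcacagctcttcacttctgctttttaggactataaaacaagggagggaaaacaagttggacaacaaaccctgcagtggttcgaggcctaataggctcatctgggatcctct
Il1rn, plus strand, chr2:24336610-24336909: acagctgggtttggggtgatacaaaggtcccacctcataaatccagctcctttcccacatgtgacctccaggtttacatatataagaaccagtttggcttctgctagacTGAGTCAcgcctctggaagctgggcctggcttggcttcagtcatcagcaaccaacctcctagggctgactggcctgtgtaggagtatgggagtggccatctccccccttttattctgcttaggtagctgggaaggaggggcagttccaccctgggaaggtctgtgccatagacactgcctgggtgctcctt
Il6, plus strand, chr5:30012864-30013163: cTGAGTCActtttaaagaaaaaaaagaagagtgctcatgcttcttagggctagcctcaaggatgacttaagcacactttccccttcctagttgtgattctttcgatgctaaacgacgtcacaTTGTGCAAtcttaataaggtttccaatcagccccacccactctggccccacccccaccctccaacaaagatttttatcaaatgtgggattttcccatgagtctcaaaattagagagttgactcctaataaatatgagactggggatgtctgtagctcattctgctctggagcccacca
The consensus STAT letters were found in none of the windows of the 6 members, on either strand, against 8.3% of 32851 RefSeq windows. The AP-1 letters, present in 7.81% of the windows, were found from 141 bases before the *Il1rn* start, from 249 bases before the *Il6* start and from 12 bases before the *Il1a* start. The C/EBP letters, present in 10.8%, were found from 128 bases before the *Il6* start, and the *Il1b* window held none of the 3 motifs. No motif overlapped another, and these are matches of letters within short windows only.

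In untreated monocytes, the 9 transcripts spanned levels from over 100 RPKM to a few reads. By group means *Il1b* was the most abundant in both genotypes, followed by *Il1rn*, *Il6* and *Il18*, although *Il1rn* exceeded *Il1b* in replicate 1, at 270 against 122 RPKM in WT and 262 against 172 RPKM in DKI cells. *Il12b* and *Il23a* were below 1 RPKM in every library. No member passed the test between WT and DKI monocytes. Of the 6 members in the limma fit, 0 were called, against 0% of the 9179 genes tested, and 0 were called by voom on reads. Of these members 0 had an unadjusted p below 0.05, against 44 of all genes tested. The genotypes overlapped for all 9 members, and did not overlap for 1.03% of the genes tested. The plot of each interleukin by library shows this overlap on day 0.

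**Figure D1:**
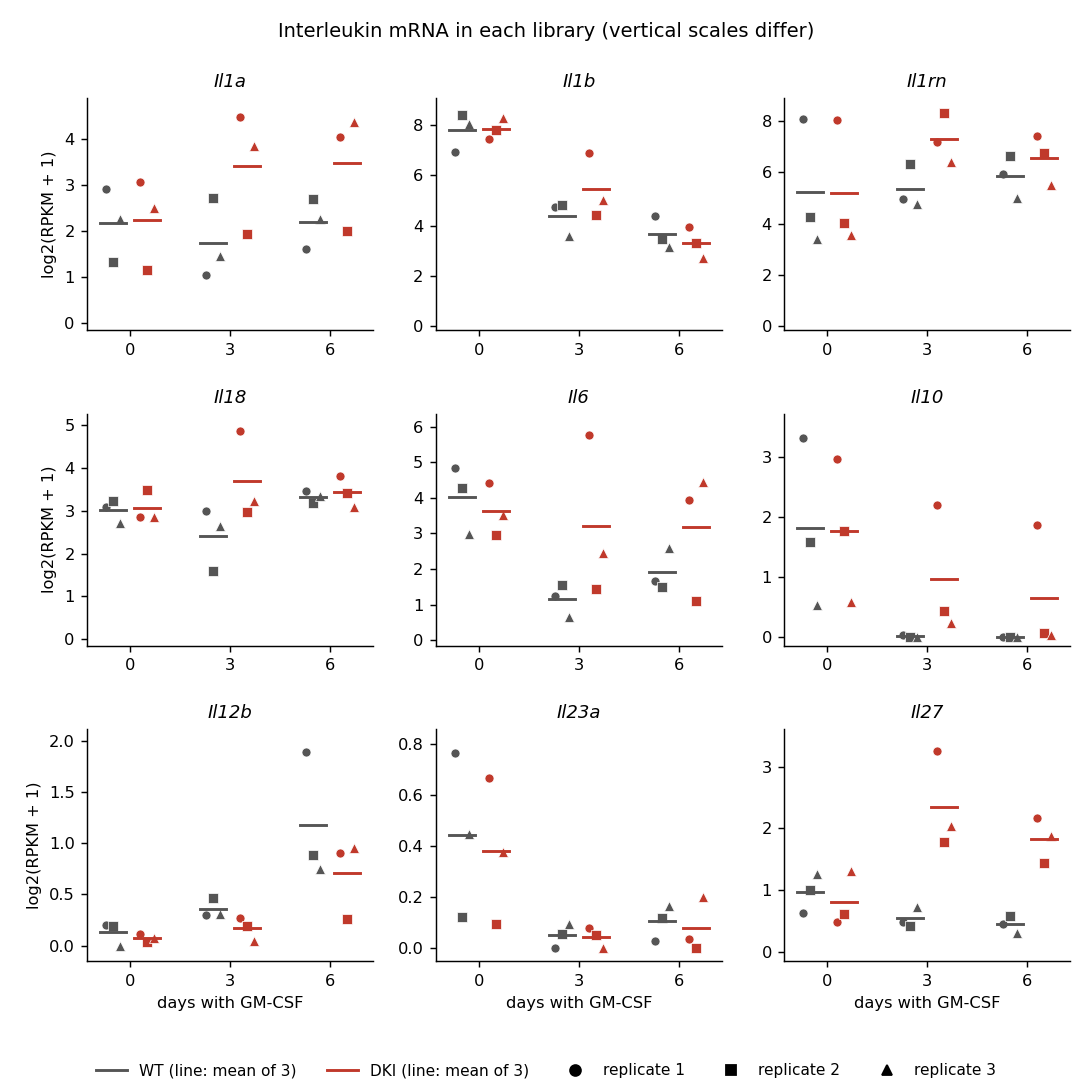
Level of each interleukin, as log2(RPKM + 1), on days 0, 3 and 6 in WT (gray) and DKI (red) libraries. Symbols are single libraries by replicate number, short lines are means of 3 libraries, and the vertical scale differs between genes. *Il27* was higher in every DKI than in every WT library on days 3 and 6, whereas *Il6* and *Il1a* were high in only 2 of the 3 DKI libraries on each of these days.

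*Il27* was the member that passed the test between genotypes on both days of culture. It encodes the alpha subunit of IL-27, a cytokine of activated myeloid cells that acts on T cells and can restrain inflammation. On day 3, *Il27* was at 0.402, 0.339 and 0.662 RPKM in WT replicates 1, 2 and 3, from 10, 9 and 15 reads. In the DKI libraries it was at 8.55, 2.41 and 3.10 RPKM, from 237, 67 and 68 reads. The lowest DKI library thus lay well above the highest WT library. The difference was 1.81 ± 0.41 on the log2 scale (SE, n = 3 per group, limma adjusted p = 0.0494). On day 6, *Il27* was at 0.365, 0.495 and 0.234 RPKM in WT and reached 3.49, 1.71 and 2.66 RPKM in DKI libraries. The groups were again apart, with a difference of 1.38 ± 0.27 (SE, n = 3 per group, limma adjusted p = 0.0356). DKI was higher in 3 of 3 pairs on each day. On day 0, in contrast, *Il27* was at 0.540 to 1.39 RPKM in WT and 0.401 to 1.49 RPKM in DKI monocytes, and it was below the filter.

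With the pairing as a block, the limma adjusted p was 0.0701 on day 3 and 0.0569 on day 6, and the gene was not called. *Il27* entered both comparisons only through its DKI libraries, and without the filter the adjusted p was 0.0881 and 0.0509. Without the libraries of the earlier year, the difference was 1.33 on day 3 (adjusted p = 0.0752) and 1.21 on day 6 (adjusted p = 0.197), with limma. The call was also lost without any 1 library other than DKI replicate 1 on day 3 and DKI replicate 2 on day 6, with limma adjusted p up to 0.152 and 0.120.

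Over the first 3 days, *Il27* rose in DKI cells. It rose by 1.55 ± 0.44 on the log2 scale from day 0 (SE, n = 3 per group, limma adjusted p = 0.0358), and the days did not overlap. It passed the filter only through its day 3 libraries. The call was lost without the filter, with quantile normalization, by voom, with the replicate block, without DKI day 0 replicate 1 or 2 and without DKI day 3 replicate 3 (limma or voom adjusted p from 0.0570 to 0.104 among these). In WT cells its mean was 0.980 RPKM on day 0 and 0.468 RPKM on day 3, with overlapping libraries and too low a level for the fit. The difference between these time courses was 1.96 ± 0.53 (SE, limma adjusted p = 0.0803), which did not pass the threshold. In a fit of all 18 libraries it did, with an adjusted p of 0.0440, and also without DKI day 3 replicate 2 (limma adjusted p = 0.0477). It did not without the filter, with the replicate block, by voom or with only libraries of the later name year (limma or voom adjusted p = 0.115, 0.0900, 0.198 and 0.126). *Il27* passed the filter here only through the DKI libraries of day 3.

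The partner subunit of IL-27 is encoded by *Ebi3*, which was named here after its values were seen. *Ebi3* was at 45.2, 30.7 and 46.4 RPKM in WT and at 65.6, 23.1 and 37.8 RPKM in DKI cells on day 3. On day 6 it was at 44.9, 36.4 and 57.1 RPKM in WT and 61.4, 24.8 and 23.5 RPKM in DKI cells. The genotypes overlapped on both days, with log2 differences of -0.05 and -0.45 (limma adjusted p = 0.945 and 0.487). *Ebi3* was thus present in all of these libraries at a higher level than *Il27*. The ratio of *Il27* to *Ebi3* RPKM ranged from 0.00889 to 0.0143 in WT and from 0.0820 to 0.130 in DKI libraries on day 3. On day 6, the ranges were 0.00410 to 0.0136 and 0.0569 to 0.114. The ratios of the genotypes were apart on both days and overlapped on day 0, as the plot of ratios shows.

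**Figure D2:**
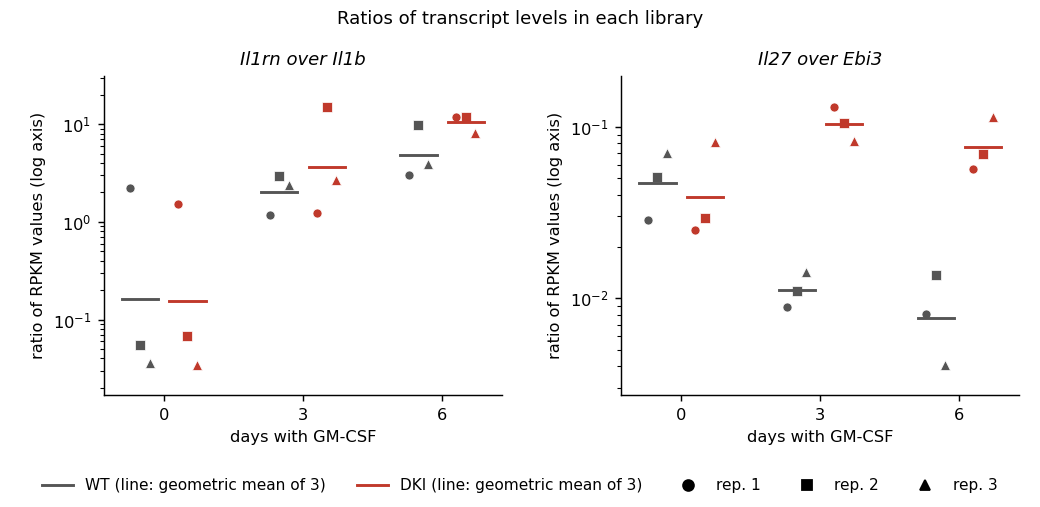
Ratio of *Il1rn* to *Il1b* RPKM (left) and of *Il27* to *Ebi3* RPKM (right) in each WT (gray) and DKI (red) library, on log axes, by days with GM-CSF. Symbols are single libraries and short lines are geometric means of 3. Every DKI library lay above every WT library for *Il27* over *Ebi3* on days 3 and 6, where the DKI ratios were 0.0569 or more, while the *Il1rn* to *Il1b* ratios of the genotypes overlapped on all days.

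Among the 6 members that could be fitted on day 3, *Il27* was the only one called, against 3.21% of all 9740 genes called higher in DKI, 4.21% called lower and 7.42% called in either direction. All 6 had a positive difference, as had 3756 of the 9740 genes, with a median of 1.74 against -0.11 over all genes. *Il6* and *Il27* passed the filter on day 3 only through their DKI libraries, which favors a positive difference. *Il12b*, lower in DKI in 3 of 3 pairs, did not pass it, so nothing is drawn from the shared direction. In RPKM, the WT and DKI libraries did not overlap for 4 of the 9 members, namely *Il1rn*, *Il10*, *Il27* and, lower in DKI, *Il12b*. The *Il12b* reads before scaling did overlap, with 16 in replicate 1 of both genotypes and 15 in WT replicate 3. Of the 6 members that passed the filter, 2 did not overlap, *Il1rn* and *Il27*, where 36.3% of the 9740 genes that passed it did not overlap. On day 6, *Il27* was likewise the only member called, against 2.72% of 9842 genes called higher, 4.82% called lower and 7.54% called in either direction. The median over the 6 fitted members was 0.98 against -0.17 over all genes, and the groups did not overlap for *Il10* and *Il27*. Of the 6 that passed the filter this was *Il27* alone, against 37.2% of the 9842 genes that passed it.

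**Figure D3:**
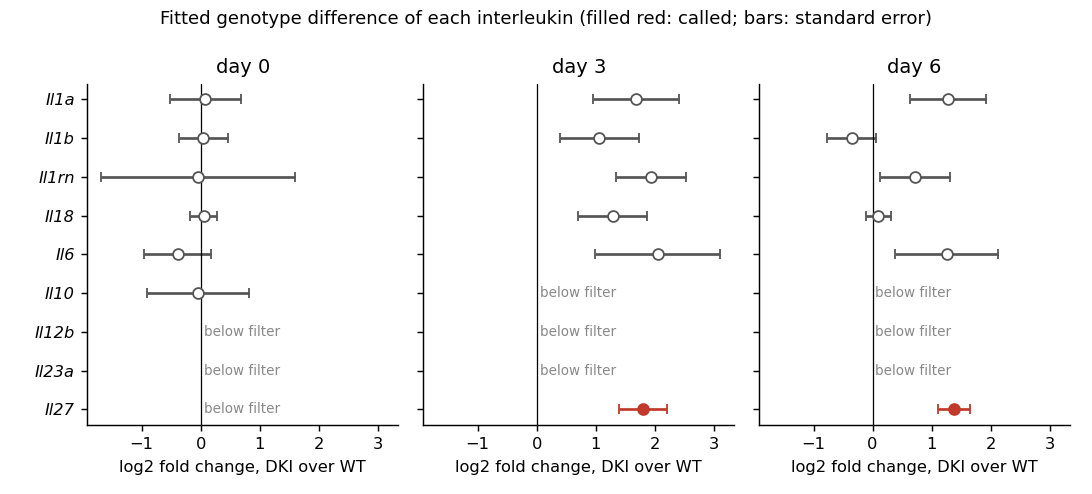
Fitted log2 difference of DKI over WT for each interleukin on days 0, 3 and 6, on the log2(RPKM + 1) scale, with bars of 1 standard error and 3 libraries per group. The differences centered near 0 on day 0 and were positive for all 6 fitted members on day 3, and *Il27* (filled red) was the only member called, at 1.81 on day 3 and 1.38 on day 6. On day 3, *Il6* and *Il27* passed the filter only through their DKI libraries.

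*Il1rn*, which encodes the IL-1 receptor antagonist, was higher in DKI cells on day 3 when libraries were paired by number. Levels were 30.3, 80.1 and 26.2 RPKM in WT against 145, 313 and 83.6 RPKM in DKI libraries. The groups did not overlap, although the lowest DKI library was close to the highest WT library. The difference was 1.94 ± 0.60 (SE, n = 3 per group), and its limma adjusted p was 0.106 without and 0.0208 with the pairing as a block, so that it was called in the paired fit only. Within the pairs, the log2 difference was between 1.64 and 2.22. On day 6, *Il1rn* was at 59.4, 99.7 and 30.9 RPKM in WT and at 170, 108 and 44.8 RPKM in DKI cells. These groups overlapped, and the difference of 0.71 ± 0.59 did not pass the test (SE, n = 3 per group, limma adjusted p = 0.461; 0.178 with the block).

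In untreated monocytes, *Il1rn* had the widest spread of the fitted members. It was at 270, 18.2 and 9.51 RPKM in WT and at 262, 15.2 and 10.7 RPKM in DKI libraries, so that replicate 1 of both genotypes stood apart from the others while the genotypes were close within each replicate. *Il10* had the same order on day 0. Any time course of *Il1rn* that starts on day 0 rests on this library. Without DKI day 0 replicate 1, the rise from day 0 to day 3 in DKI cells was 3.51 with a limma adjusted p of 0.0151, against 2.09 and 0.205 with all libraries.

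*Il1b*, which encodes the main secreted agonist of the IL-1 receptor in monocytes, fell with culture in both genotypes. It was at 122, 333 and 263 RPKM in WT monocytes, and WT cells of day 3 held 25.9, 27.1 and 10.96 RPKM. In DKI cells it was at 172, 221 and 310 RPKM on day 0, falling to 116, 20.8 and 31.4 RPKM by day 3. Day 3 lay below day 0 in every library of both genotypes. The log2 change was -3.41 ± 0.46 in WT (SE, n = 3 per group, limma adjusted p = 0.00149) and -2.39 ± 0.61 in DKI (SE, n = 3 per group, limma adjusted p = 0.0254). The WT call held without each library in turn. The DKI call was lost without the filter (adjusted p = 0.0522), without DKI replicate 1, 2 or 3 of day 0, and without DKI replicate 2 or 3 of day 3 (adjusted p from 0.0528 to 0.0801 among these). From day 0 to day 3, 6 of 10 fitted neutrophil and granulocyte precursor markers were called lower in WT (median -3.95). In DKI cells 4 of 11 were called lower (median -0.82), and 0 were called higher in either genotype. Of the fitted basophil, mast cell and eosinophil markers, 2 of 4 were lower in WT and 3 of 4 in DKI cells. The shares of all genes called lower were 22.8% in WT and 21.1% in DKI cells. On day 3, the neutrophil and precursor sums of replicate 2 were 4490 RPKM in WT and 2859 RPKM in DKI cells. Both lay within the day 0 ranges of 2637 to 4502 RPKM and 2792 to 5256 RPKM. The part of these markers in the changes of *Il1b*, *Il6* and *Il10* from day 0 was not tested.

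The genotypes overlapped for *Il1b* on every day. On day 3 the difference was 1.06 ± 0.67 (SE, n = 3 per group, limma adjusted p = 0.360), and DKI replicate 1, at 116 RPKM, was the highest. By day 6 the levels were 19.8, 10.3 and 7.86 RPKM in WT and 14.3, 9.05 and 5.503 RPKM in DKI cells. DKI was the lower library in 3 of 3 pairs, by 0.16 to 0.45 on the log2 scale, and the difference of -0.35 ± 0.42 did not pass the test (SE, n = 3 per group, limma adjusted p = 0.606). The ratio of antagonist to agonist, *Il1rn* over *Il1b*, ranged from 1.17 to 2.96 in WT and from 1.25 to 15.03 in DKI cells on day 3. On day 6 it was 2.99, 9.71 and 3.93 in WT and 11.95, 11.93 and 8.14 in DKI cells. All DKI values on day 6 thus exceeded 2 of the 3 WT values, and the third WT library lay within the DKI range.

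*Il1a*, which encodes the cell-associated agonist IL-1α that is released by damaged cells, followed the replicates of the DKI cultures. On day 3 it was at 1.08, 5.601 and 1.76 RPKM in WT and at 21.4, 2.86 and 13.4 RPKM in DKI cells. On day 6 it was at 2.07, 5.49 and 3.798 RPKM in WT and at 15.5, 3.03 and 19.8 RPKM in DKI cells. DKI replicates 1 and 3 were above all WT libraries of their day and DKI replicate 2 was within the WT range. The differences of 1.68 ± 0.73 and 1.28 ± 0.64 did not pass the test (SE, n = 3 per group, limma adjusted p = 0.205 and 0.240). From day 0 to day 3, *Il1a* changed by 1.17 ± 0.75 in DKI cells (SE, n = 3 per group, limma adjusted p = 0.253) and by -0.43 ± 0.54 in WT cells (adjusted p = 0.540). With the replicate number as a block, the former was called (adjusted p = 0.0214), although the numbers did not pair the libraries of days 0 and 3.

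*Il18* encodes an IL-1 family cytokine that is held in the cell as a precursor and induces interferon-γ in lymphocytes. Its levels were 5.57 to 8.32 RPKM in WT and 6.18 to 10.1 RPKM in DKI monocytes. On day 3, it was at 6.94, 1.99 and 5.21 RPKM in WT and at 28.3, 6.89 and 8.38 RPKM in DKI cells. DKI was higher in 3 of 3 pairs, but the groups overlapped slightly, and the difference was 1.29 ± 0.58 (SE, n = 3 per group, limma adjusted p = 0.222; 0.0764 with the block). On day 6, the levels were 8.04 to 10.03 RPKM in WT and 7.47 to 12.9 RPKM in DKI cells, and the difference was 0.10 ± 0.21 (SE, n = 3 per group, limma adjusted p = 0.783).

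*Il6*, an inflammatory cytokine that acts on lymphocytes and on the acute phase response of the liver, fell in WT cells over the first 3 days. It went from 27.4, 18.3 and 6.87 RPKM to 1.38, 1.96 and 0.572 RPKM, with no overlap. The log2 change was -2.87 ± 0.48 (SE, n = 3 per group, limma adjusted p = 0.00328), and it was called without each library in turn. *Il6* passed the filter in this comparison only through day 0, and without the filter the limma adjusted p was 0.0119. In DKI cells *Il6* went from 20.2, 6.82 and 10.5 RPKM to 53.0, 1.71 and 4.43 RPKM. Replicates 2 and 3 were below all DKI libraries of day 0 and replicate 1 was above them, and the change of -0.42 ± 1.07 did not pass the test (SE, n = 3 per group, limma adjusted p = 0.776). Without DKI day 3 replicate 1, the change was -1.69 with a limma adjusted p of 0.0470. The difference between the time courses of WT and DKI was 2.45 with an adjusted p of 0.411, so that no difference in the fall of *Il6* was shown.

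Between genotypes, *Il6* had the widest spread of the fitted members on days 3 and 6. The log2 difference within pairs on day 3 was 4.50, -0.13 and 1.79, and on day 6, where DKI cells were at 14.5, 1.16 and 21.0 RPKM and WT cells at 2.16, 1.84 and 5.01 RPKM, it was 2.29, -0.40 and 1.87. As for *Il1a*, replicates 1 and 3 were higher in DKI and replicate 2 was not. The fitted differences were 2.05 ± 1.06 on day 3 (SE, n = 3 per group, limma adjusted p = 0.276) and 1.25 ± 0.87 on day 6 (adjusted p = 0.383). On day 3 *Il6* passed the filter only through its DKI libraries, and without the filter the limma adjusted p was 0.376. Without DKI day 6 replicate 2, both *Il6* and *Il1a* were called on day 6, at 2.29 (adjusted p = 0.0263) and 2.02 (adjusted p = 0.0273) with limma.

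**Figure D4:**
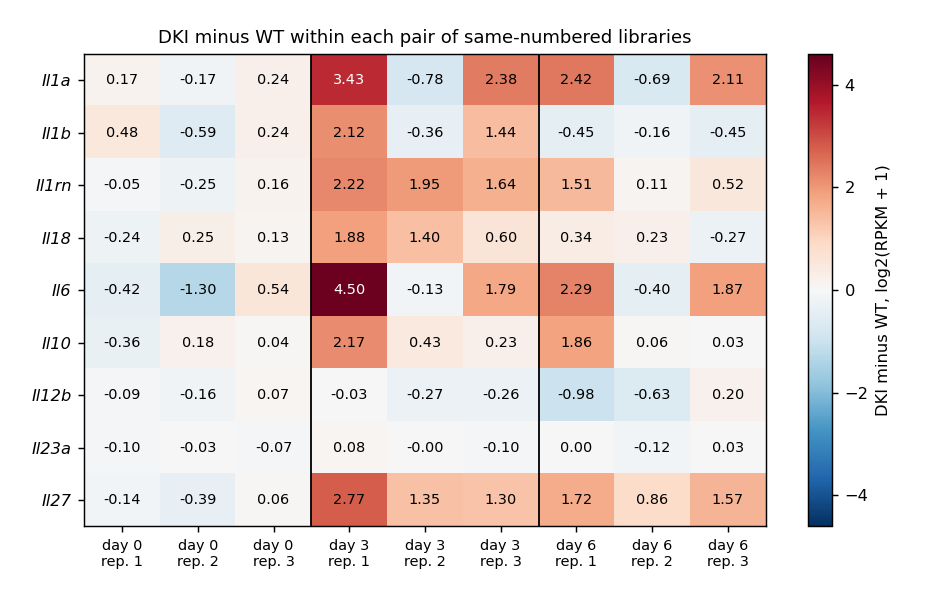
Difference of DKI minus WT in log2(RPKM + 1) between same-numbered libraries, for each interleukin (vertical) and each day and replicate (horizontal). Red is higher in DKI and blue is lower, and each cell gives its value. *Il27* was higher in DKI in all 6 pairs of days 3 and 6, *Il1a* and *Il6* were lower in replicate 2 of both days, and replicate 1 of day 3 held the largest difference in the map, 4.50 for *Il6*.

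*Il10* encodes an anti-inflammatory cytokine that acts on the same myeloid cells that make it. In WT cultures its reads all but disappeared, from 494, 110 and 19 reads on day 0 to 1, 0 and 0 reads on day 3 and to 0 in each library on day 6. In DKI cultures 345, 135 and 19 reads on day 0 were followed by 184, 18 and 7 reads on day 3 and by 103, 2 and 1 reads on day 6. Every DKI library thus held more *Il10* reads than every WT library on both days, by as little as 1 read on day 6. At 0 reads in WT day 6 libraries, which allows up to 3 reads over the group, *Il10* was at least 36.9-fold higher in DKI. This bound rests on DKI replicate 1, since the other two DKI libraries held 3 reads together, which is at the floor. *Il10* was below the filter on both days, and when fitted without it the limma adjusted p was 0.384 and 0.526. *Il10* passed the filter between days 0 and 3 only through day 0, where it was high. The change from day 0 to day 3 was -1.80 ± 0.64 in WT (SE, n = 3 per group, limma adjusted p = 0.0547) and -0.82 ± 0.74 in DKI (SE, n = 3 per group, adjusted p = 0.414). The WT change had an adjusted p of 0.0942 without the filter and was called at a pseudocount of 0.5 (adjusted p = 0.0354) or 0.1 (adjusted p = 0.0118), with quantile normalization (adjusted p = 0.0448) and without WT day 0 replicate 3 (-2.44, adjusted p = 0.0125), so that this call depended on the processing and on 1 library.

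The subunits of IL-12 and IL-23 were low throughout. *Il12b* encodes the subunit that both cytokines share. In WT cells it held 12, 12 and 0 reads on day 0, 16, 28 and 15 on day 3 and 184, 71 and 40 on day 6, the last equal to 2.70, 0.847 and 0.677 RPKM. In DKI cells it held 6, 2 and 3 reads, then 16, 11 and 2 reads, and then 51, 15 and 63 reads, or 0.870, 0.197 and 0.933 RPKM on day 6. WT day 6 libraries were thus all above those of WT day 3. On day 3 the DKI libraries were lower than all WT libraries by a small margin, from 0.0329 to 0.209 RPKM against 0.233 to 0.381 RPKM, and on day 6 the genotypes overlapped. *Il12b* did not enter any fit of the main filter. *Il23a*, the subunit particular to IL-23, held between 0 and 7 reads in each library of days 3 and 6 of both genotypes, down from 4 to 40 reads on day 0. At this depth no genotype difference of *Il23a* was detectable.

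Over time, 2 of the 6 fitted members were called in WT cells between days 0 and 3, both lower (*Il1b* and *Il6*), against 22.8% of 9938 genes called lower, 20.3% called higher and 43.1% called in either direction. In DKI cells, 1 of 7 was called lower (*Il1b*) and 1 higher (*Il27*), against 21.1% and 13.1% of 9922 genes, or 34.2% in either direction. The libraries of days 0 and 3 did not overlap for 5 of the 9 members in WT and 3 in DKI. Among those that passed the filter, these were 3 of 6 in WT and 2 of 7 in DKI, against 61% and 55.2% of the genes that passed it. Between days 3 and 6, limma called 0 members and 0% of all genes in either genotype, voom called 0 members, and 1 member in each genotype had an unadjusted p below 0.05, against 722 of 9613 genes in WT and 93 of 9540 in DKI. These were *Il18* in WT, at 0.93 ± 0.35, and *Il1b* in DKI, at -2.12 ± 0.66 (SE, n = 3 per group). Of the 7 members tested for a difference in time course from day 0 to day 3, limma and voom called 0, against 2.91% of 10212 genes by limma (1.2% with a positive and 1.7% with a negative difference), and 1 had an unadjusted p below 0.05, *Il27*, as had 1606 of all genes. From day 3 to day 6, limma called 0 of 6, against 0% of all genes, with 0 by voom and 0 at an unadjusted p below 0.05, against 89 of 9985 genes.

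Most receptors and processing genes of these cytokines did not pass the test between genotypes, in lists that include genes known to differ in these data. Their counts are to be read against the 7.42% and 7.54% of all genes called in either direction on days 3 and 6, and nothing particular to a list is drawn from them. Of 9 fitted receptors and soluble inhibitors of IL-1 and IL-18, 0 were called higher and 1 lower in DKI on day 3, and 1 higher and 1 lower on day 6, with medians of -0.67 and -0.62. *Il18r1*, the ligand-binding chain of the IL-18 receptor, was at 5.09, 3.47 and 2.84 RPKM in WT and at 0.202, 0.324 and 0.685 RPKM in DKI cells on day 3. On day 6 it was at 13.5, 7.37 and 11.2 RPKM in WT and at 0.828, 3.01 and 2.01 RPKM in DKI cells. The groups did not overlap and the differences were -1.76 ± 0.26 and -2.02 ± 0.34 (SE, n = 3 per group, limma adjusted p = 0.0175 and 0.0273; with the block 0.0491 and 0.0541, the latter not called). *Il18r1* entered both comparisons only through its WT libraries, and without the filter the day 6 call was lost (limma adjusted p = 0.0615). *Il1rl2*, a receptor of the IL-36 cytokines, was higher in DKI on day 6 by 1.36 ± 0.28 (SE, n = 3 per group, limma adjusted p = 0.0410). This call was lost without the filter, by voom, without WT replicate 1 or 3 or DKI replicate 2 or 3, and with only libraries of the later name year (adjusted p from 0.0516 to 0.144). *Il1r2*, the decoy receptor of IL-1 and the most abundant gene of this list, was at 238, 92.2 and 139.8 RPKM in WT and at 54.0, 64.9 and 50.2 RPKM in DKI cells on day 3, where the groups did not overlap and the test was not passed (-1.36 ± 0.35, SE, n = 3 per group, limma adjusted p = 0.0679). *Il18bp*, the soluble inhibitor of IL-18, was far higher in DKI replicate 1 than elsewhere, at 172 RPKM on day 3 and 115 RPKM on day 6 against 7.03 to 10.8 RPKM in the other DKI and 1.65 to 8.60 RPKM in the WT libraries of these days. Its differences of 2.77 and 1.89 did not pass the limma test (adjusted p = 0.191 and 0.245).

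Of 12 fitted genes of the inflammasome and of IL-1 maturation, 2 were called higher and 0 lower in DKI on each day, with medians of 0.55 and 0.28. *P2rx7*, the ATP-gated channel that triggers release of mature IL-1β, was at 3.899, 4.90 and 6.78 RPKM in WT and at 35.1, 17.8 and 37.5 RPKM in DKI cells on day 3. On day 6 it was at 5.41, 7.22 and 3.42 RPKM in WT and at 39.1, 16.9 and 24.3 RPKM in DKI cells. The DKI libraries were all above the WT libraries, by 2.29 ± 0.32 on day 3 and 2.09 ± 0.35 on day 6 (SE, n = 3 per group, limma adjusted p = 0.0146 and 0.0269), and both calls held with the block. The day 3 call was lost without WT replicate 1 or 2 and with only libraries of the later name year (adjusted p from 0.0602 to 0.0748). The day 6 call was lost without the filter, without replicate 1 or 3 of either genotype and with only libraries of the later name year (adjusted p from 0.0516 to 0.152). The other calls, *Nlrc4* on day 3 at 0.65 ± 0.14 and *Casp4* on day 6 at 1.12 ± 0.25 (SE, n = 3 per group, limma adjusted p = 0.0428 and 0.0498), were lost with the block (0.0773 and 0.0776). *Nlrc4* is a sensor and *Casp4* the mouse caspase-11, both of which lead to processing of IL-1 family cytokines. The 3 most abundant genes of this list, *Txnip*, *Mefv* and *Pycard*, were not called on either day, with differences between -0.52 and 1.42 on the log2 scale.

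Of the receptors and partner subunits of the IL-6 and IL-12 families, 0 of 7 fitted genes were called higher and 1 lower on day 3, and 0 of 8 higher and 1 lower on day 6, with medians of -0.05 and 0.04. The gene was *Il12rb2*, the signaling chain of the IL-12 receptor, at 20.0, 21.3 and 12.9 RPKM in WT and 8.09, 5.52 and 5.24 RPKM in DKI cells on day 3. Its differences were -1.38 ± 0.24 on day 3 and -2.26 ± 0.42 on day 6 (SE, n = 3 per group, limma adjusted p = 0.0267 and 0.0318; with the block 0.0332 and 0.0551, the latter not called). *Il6ra*, *Il6st* and *Osm*, the most abundant genes of the list, were not called (adjusted p from 0.102 to 0.923). Of 6 genes of the IL-10 receptor and response, 1 was called higher and 0 lower on each day, with medians of -0.01 and -0.52. *Il10rb*, a chain of the IL-10 receptor that several related cytokines share, was at 39.2, 59.2 and 51.4 RPKM in WT and at 173, 123 and 104 RPKM in DKI cells on day 3. Its differences were 1.39 ± 0.25 and 1.44 ± 0.26 (SE, n = 3 per group, limma adjusted p = 0.0282 and 0.0303), and both calls were lost with the block (0.0690 and 0.0564). *Jak1* and *Stat3*, which carry the IL-10 signal, were not called (adjusted p from 0.0749 to 0.769). Among 25 other interleukin genes in the table, 4 were fitted on day 3 and 5 on day 6 and 0 were called. The most abundant of these, *Il1f9*, *Il15* and *Il16*, differed by -1.94, 1.596 and 0.74 on day 3 (limma adjusted p = 0.298, 0.146 and 0.294).

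**Figure D5:**
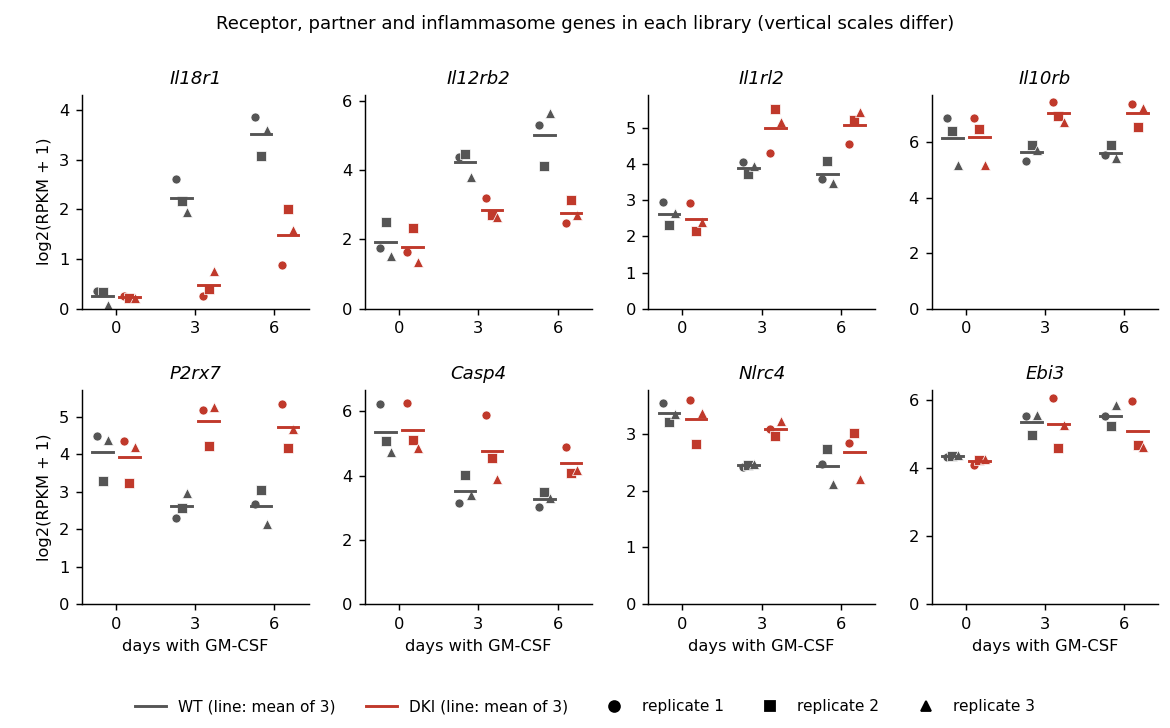
Levels, as log2(RPKM + 1), of the receptor, inflammasome and partner genes that were called between genotypes and of *Ebi3*, in WT (gray) and DKI (red) libraries by days with GM-CSF. Symbols are single libraries, short lines are means of 3 and vertical scales differ. DKI libraries lay below all WT libraries for *Il18r1* and *Il12rb2* and above them for *P2rx7* and *Il10rb* on days 3 and 6, while *Ebi3* overlapped.

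Markers of other cells moved with these results. The summed level of 9 dendritic cell markers was 9780 to 15293 RPKM in WT and 1339 to 5086 RPKM in DKI libraries on day 3, and that of 7 macrophage markers was 644 to 1318 RPKM and 2180 to 4821 RPKM. Of these, 4 of 8 fitted dendritic cell markers were called lower and 3 of 7 macrophage markers higher. Of all genes, 4.21% were called lower and 3.21% higher on this day. On day 6, the ranges were 9968 to 17316 RPKM and 1997 to 8085 RPKM for dendritic cell markers, and 616 to 2077 RPKM and 2187 to 5348 RPKM for macrophage markers. Here 5 of 9 dendritic cell markers were called lower and 2 of 7 macrophage markers higher, against 4.82% and 2.72% of all genes. The 8 monocyte markers summed to 823 to 1277 RPKM in WT and 1583 to 2943 RPKM in DKI libraries on day 3, and to 651 to 1251 RPKM and 1437 to 2014 RPKM on day 6, so that the genotypes did not overlap on either day. The monocyte list shares *Csf1r* with the macrophage list and holds *Fcgr1*, which the authors name as a macrophage signature gene. The monocyte and macrophage sums are therefore not independent. Limma and voom called 0 of 8 fitted monocyte markers on day 3 and 0 of 7 on day 6, with 4 and 1 at an unadjusted p below 0.05 by limma and median log2 differences of 1.12 and 0.87. Marker sums of 11 neutrophil and precursor genes were 189, 4490 and 289 RPKM in WT and 1869, 2859 and 575 RPKM in DKI cells on day 3, and 584, 594 and 22.01 RPKM and 3113, 257 and 40.5 RPKM on day 6, with 1 gene called higher on day 3 and 0 on day 6. DKI replicate 1, the highest DKI library for *Il1b*, *Il10*, *Il18*, *Il27* and *Il18bp* on both days and for *Il1a* and *Il6* on day 3, held more of these markers than WT replicate 1 on both days. On day 3, however, replicate 2 of both genotypes held more of them, at 2859 RPKM in DKI and 4490 RPKM in WT. All of the genes named were lower in these libraries than in DKI replicate 1. Within each genotype, *Il1rn* was highest in the library with the highest sum of these markers on day 3 and again on day 6. The WT sums of day 6 were close, at 594 and 584 RPKM in replicates 2 and 1. On day 0 the same held in DKI but not in WT. There the sum was highest in replicate 2, at 4502 RPKM against 4419 RPKM in replicate 1, and *Il1rn* was highest in replicate 1. Lymphocyte markers summed to under 2 RPKM in every library of days 3 and 6. The part of these markers in the interleukin results was not tested.

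By level, *Il1rn* was the most abundant member on days 3 and 6 in both genotypes, and *Il1b* followed on day 3. The genes whose 6 group means were nearest to those of a member, among all genes above 2 RPKM in a group, are given as a description without a test. For *Il27* they were *Lgals9* and *Pik3ap1*, at root mean square differences of 0.08 and 0.09 on the log2 scale. For *Il1rn* they were *Rhobtb1* and *Lyzl4* (0.16 each), for *Il1a* *Fer* and *Tmem9* (0.12 each), and for *Il18* *Glul* and *Abcc5* (0.13 and 0.15). *Il6* was nearest to *Nr1d2* and *Hpse* (0.16 and 0.17), *Il10* to *Flcn* and *BC005537* (0.04 and 0.05), and *Il12b* to *Lima1* and *Vsig10* (0.08 and 0.11). *Il1b* had no close match, with *Cd177* at 0.34 and *Mki67* at 0.39, and *Il23a* varied too little between groups to be matched.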

How the data were processed

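Libraries were taken as 6 groups of 3 by genotype and day from the sample labels. The authors used Subread to place single-end reads on mm10 and featureCounts to count them on RefSeq genes, and deposited RPKM values scaled by mapped reads alone. Versions and strandedness were not given in the sources used here. All 18 columns of values were used. Of 20298 identifiers, 20082 were found in RefSeq and 216 were not.

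Depth was recovered from the deposited RPKM values. The value of 1 read in each library was read from 715 single-exon genes (23 to 33 genes at 1 read, relative tolerance 0.0001), and each gene's length as the smallest at which all values were whole within 0.02 reads. This held for 10417 of 10417 genes (100%) with a mean above 2 RPKM in a group. Depth was between 29.5 and 43.2 M reads, with a median of 36.4. Limits of 3 reads for a count of 0 cover counting error only.

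Values were fitted as log2(RPKM + 1) with limma 3.58.1 (lmFit, eBayes with trend) in R 4.3.3 on the libraries of each comparison, over all genes with a mean above 2 RPKM in a group compared. Differences in time course were interaction contrasts. Genes were called at a Benjamini-Hochberg adjusted p under 0.05 over all genes fitted and a change above 1.5-fold, the limits the authors used with their count test. On this scale, the fold change of a low gene is understated. The fit was tested on simulated data. The p-values measure the spread between these 3 libraries per group. Same-numbered WT and DKI libraries, of 3 independent experiments, deviated together from their group means, with correlations of 0.69 to 0.87 on day 0, 0.16 to 0.37 on day 3 and 0.34 to 0.41 on day 6. The same held between days 3 and 6 (0.12 to 0.74) but not between days 0 and 3 (-0.21 to 0.18). Alternatives were pseudocounts of 0.1 and 0.5, no filter, median centring, quantile normalization, all 18 libraries in one fit, no trend, a replicate block, each library left out, only libraries of the later name year and, chosen after seeing the data, limma voom on the recovered reads.

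The members and gene lists were chosen with earlier results of these data known. Genes named are the 9 members, list genes called between genotypes, the 3 most abundant genes of each list, and the 2 genes nearest to each member by root mean square difference of 6 centered group means, where these spanned more than 1. *Il18bp* and *Ebi3* values were singled out after being seen. Promoter windows (RefSeq, GRCm38.p6) were searched for motifs on both strands, and windows were found for 6 members. Figures were made with Python 3.11.15, numpy 2.4.6, pandas 2.3.3 and matplotlib 3.10.9.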

Additional observations from a re-analysis of the deposited data

How the results depend on the processing

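Groups of 3 libraries, low reads of *Il10*, *Il12b* and *Il23a*, and calls close to the threshold limit these results. On day 3, the number of members called between genotypes was 0 without the filter, with median centring, with quantile normalization, with voom and with only libraries of the later name year, and 0 to 1 when each library was left out (1 only without DKI replicate 1). On day 6 it was 0 without the filter, with the replicate block, with voom and with only libraries of the later name year, and 0 to 3 when each library was left out (3 without DKI replicate 2). With the replicate block on day 3 the count stayed at 1, but the member was *Il1rn* in place of *Il27*. From day 0 to day 3 in DKI, the count was 0 without the filter and 1 with quantile normalization, the replicate block or voom, and 0 to 3 when each library was left out, against 2 with all libraries. The time course difference from day 0 to day 3 had 1 member called in the fit of all 18 libraries and 0 to 1 when each library was left out. Where a library was left out, fewer libraries entered the fit, and for the other changes the cause was not tested. In WT, 2 to 3 members were called from day 0 to day 3 under each alternative, the third being *Il10*. The replicate block also ended the calls of *Il1b* and *Il27* from day 0 to day 3 in DKI (limma adjusted p = 0.0501 and 0.0653), where the numbers did not pair the libraries, and it changed no other call of a member, and none of a list gene between genotypes, beside those given with their blocked values. Each call of a list gene between genotypes was lost under 3 or more alternatives, with limma or voom adjusted p up to 0.0678 for *Il18r1*, 0.102 for *Il12rb2*, 0.0986 for *Il10rb* and 0.145 for *Nlrc4* on day 3, and up to 0.146, 0.214 and 0.194 for the first 3 and 0.172 for *Casp4* on day 6. Over 69 values of named genes, the alternatives kept direction and call in 1014 cases, lost the call in 106, gained it in 16 and turned the direction in 37.

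No difference whose direction turned had been called. On the log2 scale, the day 0 genotype difference of *Il1a* was -0.0133 with quantile normalization and that of *Il10* 0.00672 with voom. The day 6 difference of *Il18* was -0.0220 with only libraries of the later name year. From day 3 to day 6 in DKI, the *Il6* change was 0.0343 with median centring, 0.0787 with quantile normalization and 0.84 with only libraries of the later name year, and the *Il18* change was 0.14 with the latter. With each library left out in turn, the day 0 difference ranged from -0.34 to 0.62 for *Il1a*, -0.38 to 0.34 for *Il1b*, -1.46 to 1.37 for *Il1rn*, -0.92 to 0.0100 for *Il6*, -0.68 to 0.71 for *Il10* and -0.16 to 0.15 for *Il18*. The day 6 difference ranged from -0.66 to 0.000602 for *Il1b* and -0.0880 to 0.27 for *Il18*. The day 0 to day 3 change ranged from -0.82 to 1.53 for *Il1rn* in WT and -1.69 to 0.47 for *Il6* in DKI. The day 3 to day 6 change in DKI ranged from -0.69 to 0.78 for *Il1a*, -0.92 to 1.23 for *Il6* and -0.62 to 0.32 for *Il18*. The time course difference from day 3 to day 6 ranged from -1.14 to 0.34 for *Il1a*, -1.69 to 0.47 for *Il6* and -0.72 to 0.0261 for *Il27*.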
